A study of Mus musculus with 18 samples.

Results

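Messenger RNA of 10 genes of the TGF-b receptor pathway was followed in mouse CD4+ T cells with and without the oxygen-sensing PHD enzymes. The genes were the receptors Tgfbr1 and Tgfbr2, the signal carriers Smad2, Smad3 and Smad4, and the inhibitors Smad7, Ski, Skil, Ldlrad4 and Pmepa1. They were chosen by name, with earlier results of these data known, and distinct entries with the same symbol were summed. All 10 were found among the 22783 gene symbols of experiment 1 and the 16639 of experiment 2, and all 10 passed the filter of a mean of 1 FPKM in both. FPKM counts sequenced fragments per kilobase of a gene, scaled for how many fragments of the library were mapped, and is a level per length, so levels of different genes can be set side by side.

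The cells were naive splenic CD4+ T cells of C57BL/6 mice, isolated by FACS, activated through CD3 and CD28 by antibodies, and taken for RNA on day 4. In experiment 1, tKO cells carried floxed alleles of Egln1, Egln2 and Egln3 (Egln1fl/fl Egln2fl/fl Egln3fl/fl) with Cd4Cre, a recombinase transgene under Cd4 control that acts in developing T cells, the CD8 lineage included, and WT cells carried Cd4Cre with no floxed allele named in the labels. Both genotypes received TGF-b at 0, 0.2 or 2 ng/ml, and each group had 2 libraries. In experiment 2, wildtype cells received 2 ng/ml TGF-b together with 1 mM dimethyloxaloylglycine (DMOG), an inhibitor of PHD enzymes and related dioxygenases, or with vehicle, with 3 libraries per group. No age of the mice is stated in the labels, which also do not say whether replicates came from separate mice. P-values therefore measure the spread between these libraries. That spread may be technical, except between libraries labelled tKO1 and tKO2, whose sex-linked transcripts differed (below).

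TGF-b binds the receptor kinase TGFBR2, which recruits and activates TGFBR1, and TGFBR1 phosphorylates SMAD2 and SMAD3. These join SMAD4 and move to the nucleus, where they regulate transcription, in CD4+ T cells also of Foxp3, the regulator of regulatory T cells. The pathway is restrained by proteins whose genes it induces in many cell types: SMAD7 occupies and helps degrade TGFBR1, SKI and SKIL (also called SnoN) bind SMADs and recruit corepressors, and the related membrane proteins LDLRAD4 and PMEPA1 bind SMAD2 and SMAD3 and keep them from the receptor. The PHD enzymes, encoded by the Egln genes, use oxygen to hydroxylate HIF transcription factors and so mark them for degradation.

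The FPKM of a library summed to between 548974 and 856147 in the first experiment, and to between 386382 and 443888 in the second. Both tKO libraries at 2 ng/ml had the lowest sums of the first experiment (548974 and 563272), and the tKO libraries at 0 and 0.2 ng/ml the highest (711375 to 856147). Absolute depth is unknown. Relative reads per FPKM, from entries with low values, ran from 0.527 (tKO at 0.2 ng/ml, replicate 2) to 1.20 among the 12 libraries of the first experiment and between 0.899 and 1.19 among the 6 of the second. The 8 T cell markers, Cd3e and Cd4 among them, were above 0 in every library. Y-linked transcripts summed to between 60.5 and 67.6 FPKM in the 3 libraries labelled tKO1. In the other 9 of experiment 1 they summed to at most 0.008 FPKM. Xist, transcribed in female cells, had at most 0.053 FPKM in the tKO1 libraries and between 1.04 and 5.16 FPKM in the other 9. By these transcripts the tKO1 series was male and the other 9 libraries were female. Sex is thus mixed into the comparison of tKO with WT, which is given with and without that series. Egln1 averaged 108 FPKM over the doses in tKO and 30.4 FPKM in WT, Egln2 29.2 FPKM in tKO and 45.1 FPKM in WT, and Egln3 109 FPKM in tKO and 12.0 FPKM in WT. A gene's FPKM does not test the loss of single floxed exons.

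The promoters of members that moved together are shown because 3 of them, Tgfbr1, Tgfbr2 and Ski, rose with TGF-b in both genotypes and were lower with DMOG. RefSeq promoters (GRCm38.p6) were matched for 4 of the 10 members, these 3 and Smad3. Each run below is the 250 bases before a transcription start, in the gene's own direction, with capitals on CAGAC, the core of the CAGA element that SMAD3 and SMAD4 bind, and on GCGTG, a core of hypoxia response elements, read on both strands.
Tgfbr1, chr4:47352972-47353221, plus strand: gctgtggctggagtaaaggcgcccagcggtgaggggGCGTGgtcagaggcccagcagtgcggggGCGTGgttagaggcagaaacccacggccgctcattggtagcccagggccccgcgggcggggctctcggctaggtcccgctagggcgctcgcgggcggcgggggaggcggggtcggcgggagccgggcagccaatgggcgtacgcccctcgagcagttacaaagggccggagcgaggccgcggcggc
Tgfbr2, chr9:116175364-116175613, minus strand: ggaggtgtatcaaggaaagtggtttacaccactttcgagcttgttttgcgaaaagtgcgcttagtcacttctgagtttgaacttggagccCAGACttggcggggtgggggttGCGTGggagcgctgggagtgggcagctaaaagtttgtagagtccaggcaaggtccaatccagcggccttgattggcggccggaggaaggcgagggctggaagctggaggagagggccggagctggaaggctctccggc
Ski, chr4:155222536-155222785, minus strand: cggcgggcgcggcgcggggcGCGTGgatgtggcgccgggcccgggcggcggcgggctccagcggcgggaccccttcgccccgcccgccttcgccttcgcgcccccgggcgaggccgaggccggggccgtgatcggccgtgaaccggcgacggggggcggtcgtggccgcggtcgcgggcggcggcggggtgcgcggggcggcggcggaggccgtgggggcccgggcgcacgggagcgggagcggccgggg
CAGAC stood 160 bases before the start of Tgfbr2 and was not in these windows of Tgfbr1, Ski or Smad3. A second RefSeq start of Tgfbr1, not printed, had it 203 bases before the start. GCGTG stood at 214 and 186 bases before the start of Tgfbr1, at 138 bases in Tgfbr2 and at 230 bases in Ski, and Smad3 had it at 205 and 194 bases. The capitalized sites did not overlap each other. Other motifs were searched too and are left in lower case. The GC-rich motif GGCGC stood 3 times in this window of Tgfbr1 and 7 times in that of Ski. It was not in the windows of Tgfbr2 or Smad3. The form ACGTG, which differs from the capitalized hypoxia core in its first base, was in none of the windows. Neither was the longer motif GTCTAGAC. Of 32851 promoters of the same length, 42.2% held CAGAC and 28.2% held GCGTG, so a match in a single promoter is common and is given as a description. The share was 32% for the motif GGCGC, 16.6% for the form ACGTG and 0.167% for the longer motif GTCTAGAC.

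TGF-b raised receptor and inhibitor transcripts, while none of the 3 SMAD signal carriers passed the test. In WT cells at 2 against 0 ng/ml, 7 of the 10 members rose and none fell by limma's moderated test on log2(FPKM + 1), with Benjamini-Hochberg adjustment over all genes and a threshold of 0.05. Of the 10354 genes tested, 7.79% were higher and 7.91% were lower in that comparison. In tKO cells 6 of the 10 members rose and none fell, against 7.59% of genes higher and 10.4% lower. Comparisons within a genotype share its libraries at 0 or 2 ng/ml. The median log2 change of the members was 1.57 in WT, beside -0.02 over all genes, and 1.30 in tKO, beside -0.01 over all genes.

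Both receptors rose in both genotypes. Tgfbr1, on chromosome 4 (mm9, chr4:47366109-47428910), had 3.20 and 8.50 FPKM at 0 ng/ml, 11.4 and 13.3 FPKM at 0.2 ng/ml and 16.1 and 22.8 FPKM at 2 ng/ml in tKO libraries. In WT libraries it had 4.24 and 5.65 FPKM at 0 ng/ml, 11.1 and 9.65 FPKM at 0.2 ng/ml and 19.3 and 17.3 FPKM at 2 ng/ml. Every library at 2 ng/ml was above every library at 0 ng/ml in both genotypes, and the genotypes overlapped at each dose except 0.2 ng/ml. At 2 against 0 ng/ml its log2 change was 1.68 ± 0.33 (SE) in tKO (limma, adjusted p = 0.00465) and 1.71 ± 0.33 in WT (limma, adjusted p = 0.00413). Without the tKO library at 2 ng/ml of replicate 2 the change in tKO was 1.44 and missed the threshold (limma, adjusted p = 0.0719).

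Tgfbr2, the ligand-binding receptor, on chromosome 9 (mm9, chr9:115996812-116084481), had 10.3 and 4.90 FPKM at 0 ng/ml, 12.2 and 11.9 FPKM at 0.2 ng/ml and 32.9 and 25.2 FPKM at 2 ng/ml in tKO libraries. In WT libraries it had 13.1 and 13.3 FPKM at 0 ng/ml, 33.1 and 20.7 FPKM at 0.2 ng/ml and 38.4 and 38.6 FPKM at 2 ng/ml. The tKO libraries lay below the WT libraries at every dose. At 2 against 0 ng/ml its log2 change was 1.87 ± 0.30 in tKO (limma, adjusted p = 0.00118) and 1.48 ± 0.30 in WT (limma, adjusted p = 0.00486).

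**Figure D1:**
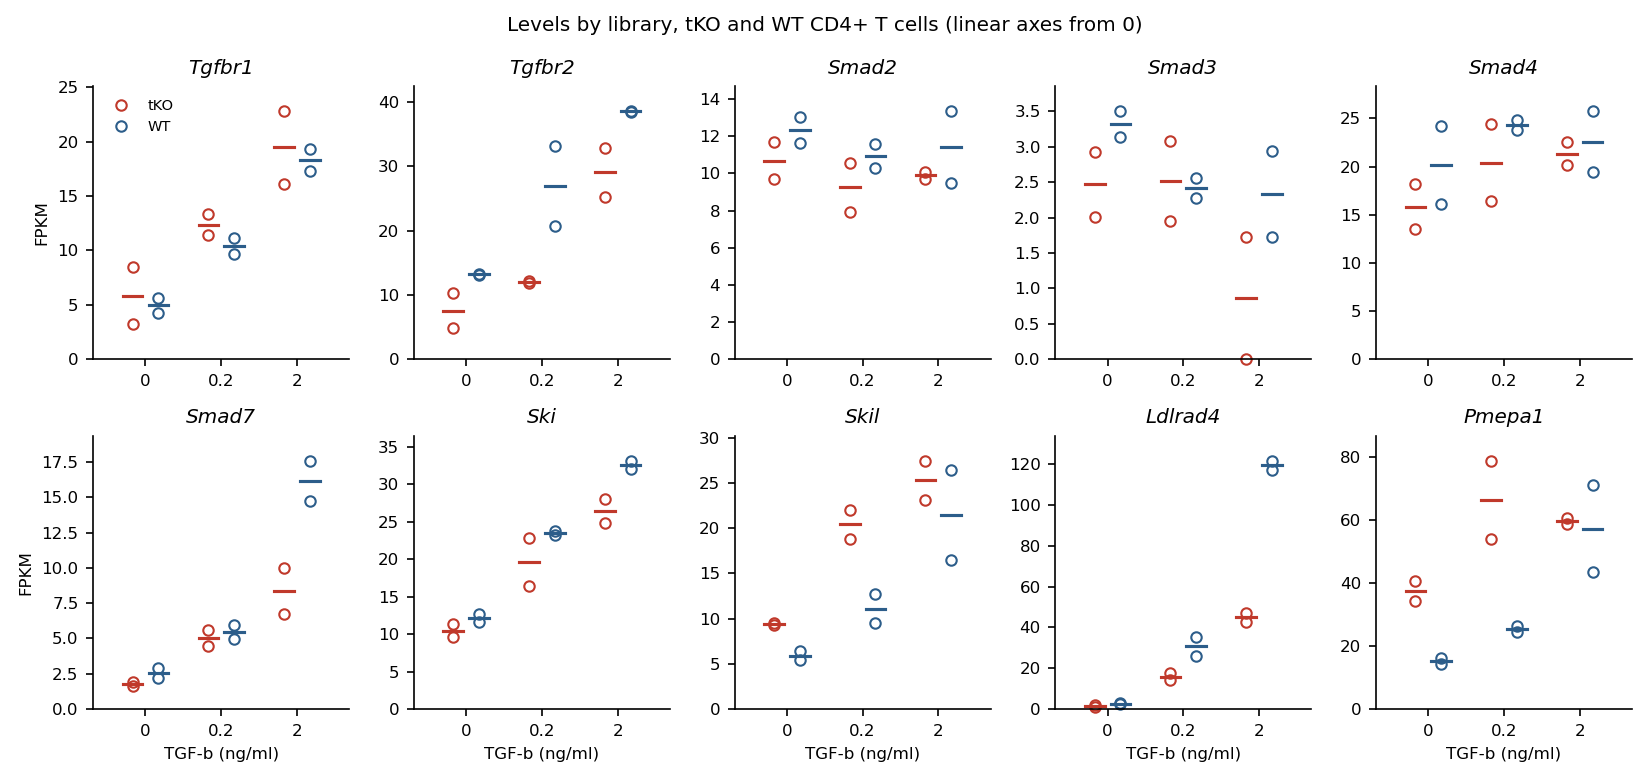
FPKM of the 10 genes by dose of TGF-b (ng/ml) in experiment 1. Open circles are libraries, short lines are group means of 2 libraries, tKO is red and to the left of WT in blue, and each panel has its own linear axis from 0. Ldlrad4 reached 117 and 122 FPKM in WT at 2 ng/ml, while Smad2 and Smad4 stayed within a narrow range.

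The signal carriers did not pass the test at 2 against 0 ng/ml in either genotype. Smad2, 1 of the pair of receptor-activated SMADs, lay between 7.92 and 11.7 FPKM over the 6 tKO libraries and between 9.46 and 13.4 FPKM over the 6 WT libraries. Smad4, their common partner, lay between 13.5 and 24.4 FPKM in tKO and between 16.1 and 25.8 FPKM in WT. The 95% interval of the log2 change of Smad2 was -0.62 to 0.43 in tKO and -0.65 to 0.41 in WT, and that of Smad4 was -0.14 to 0.98 in tKO and -0.39 to 0.73 in WT. These intervals exclude a rise of the size seen for the receptors' estimates but not a smaller change.

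Smad3, the other receptor-activated SMAD, had the lowest mean of the members in 4 of the 6 groups of experiment 1, those with TGF-b. Its levels were 2.93 and 2.02 FPKM at 0 ng/ml, 1.95 and 3.09 FPKM at 0.2 ng/ml, and 1.72 FPKM and a value listed at 0 at 2 ng/ml in tKO. In WT they were 3.51 and 3.13 FPKM at 0 ng/ml, 2.56 and 2.28 FPKM at 0.2 ng/ml and 2.94 and 1.73 FPKM at 2 ng/ml. Its log2 change at 2 against 0 ng/ml was -1.06 ± 0.43 in tKO (limma, adjusted p = 0.106) and -0.40 ± 0.43 in WT (limma, adjusted p = 0.583). The value in tKO includes the library listed at 0, which can be a failed estimate, and without that library it was -0.34 (limma, adjusted p = 0.663).

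Of the 10 members, Ldlrad4 had the largest change in both genotypes. Ldlrad4, on chromosome 18, had 1.92 and 1.01 FPKM at 0 ng/ml, 17.6 and 14.0 FPKM at 0.2 ng/ml and 47.2 and 42.7 FPKM at 2 ng/ml in tKO libraries. In WT libraries it had 2.35 and 3.08 FPKM at 0 ng/ml, 26.1 and 35.4 FPKM at 0.2 ng/ml and 117 and 122 FPKM at 2 ng/ml. The doses did not overlap within a genotype, and tKO lay below WT at every dose. At 2 against 0 ng/ml the means differed 30.7-fold in tKO and 44.1-fold in WT, and the log2 change was 4.24 ± 0.24 in tKO (limma, adjusted p = 4.85e-07) and 5.03 ± 0.24 in WT (limma, adjusted p = 1.12e-07). Its locus overlaps Fam210a, which had between 2.80 and 5.53 FPKM in experiment 1. The kit does not mark strand, so reads of the shared stretch cannot be told apart, which bears most on the levels without TGF-b.

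Smad7, the receptor-blocking SMAD, had 1.95 and 1.63 FPKM at 0 ng/ml, 4.45 and 5.60 FPKM at 0.2 ng/ml and 10.0 and 6.76 FPKM at 2 ng/ml in tKO libraries. In WT libraries it had 2.89 and 2.23 FPKM at 0 ng/ml, 5.93 and 4.95 FPKM at 0.2 ng/ml and 17.6 and 14.8 FPKM at 2 ng/ml. It climbed with dose in both genotypes, and the genotypes overlapped at 0.2 ng/ml but not at 2 ng/ml. Its log2 change at 2 against 0 ng/ml was 1.73 ± 0.28 in tKO (limma, adjusted p = 0.00131) and 2.27 ± 0.28 in WT (limma, adjusted p = 0.000178).

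The corepressor partners Ski and Skil rose in both genotypes. Ski had 11.3 and 9.65 FPKM at 0 ng/ml, 16.4 and 22.8 FPKM at 0.2 ng/ml and 28.1 and 24.9 FPKM at 2 ng/ml in tKO, and 12.7 and 11.6 FPKM at 0 ng/ml, 23.3 and 23.7 FPKM at 0.2 ng/ml and 33.1 and 32.0 FPKM at 2 ng/ml in WT. Skil had 9.25 and 9.48 FPKM at 0 ng/ml, 22.1 and 18.8 FPKM at 0.2 ng/ml and 27.5 and 23.1 FPKM at 2 ng/ml in tKO, and 5.43 and 6.38 FPKM at 0 ng/ml, 9.47 and 12.7 FPKM at 0.2 ng/ml and 16.4 and 26.4 FPKM at 2 ng/ml in WT. Ski was lower in tKO than in WT in every library pair of a dose, while Skil was higher in tKO at 0 and 0.2 ng/ml and overlapped at 2 ng/ml. At 2 against 0 ng/ml the log2 change of Ski was 1.26 ± 0.21 in tKO (limma, adjusted p = 0.00161) and 1.35 ± 0.21 in WT (limma, adjusted p = 0.000851). That of Skil was 1.34 ± 0.25 in tKO (limma, adjusted p = 0.00363) and 1.67 ± 0.25 in WT (limma, adjusted p = 0.000794).

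Pmepa1, the membrane-bound competitor for SMAD2 and SMAD3, had 34.4 and 40.4 FPKM at 0 ng/ml, 53.8 and 78.7 FPKM at 0.2 ng/ml and 58.7 and 60.7 FPKM at 2 ng/ml in tKO libraries. In WT libraries it had 16.1 and 14.1 FPKM at 0 ng/ml, 26.4 and 24.3 FPKM at 0.2 ng/ml and 70.8 and 43.5 FPKM at 2 ng/ml. It started higher in tKO and met the WT range at 2 ng/ml. At 2 against 0 ng/ml its log2 change was 0.66 ± 0.24 in tKO (limma, adjusted p = 0.0736) and 1.81 ± 0.24 in WT (limma, adjusted p = 0.000302). In tKO it passed the threshold under 8 of 21 other settings. With each library scaled to the same FPKM sum, which moved the median of all genes by 0.37, its change in tKO was 1.08 (limma, adjusted p = 0.00628).

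At 0.2 against 0 ng/ml, 2 of the 10 members rose in tKO cells, Ldlrad4 by 2.79 ± 0.24 on the log2 scale (limma, adjusted p = 7.03e-05) and Skil by 1.04 ± 0.25 (limma, adjusted p = 0.049), against 1.70% of genes higher and 0.782% lower. In WT cells Ldlrad4 alone of the 10 rose, by 3.09 ± 0.24 (limma, adjusted p = 5.06e-05), against 0.918% of genes higher and 0.676% lower. Without adjustment, 7 of the 10 members had p under 0.05 in each genotype, the receptors and the 5 inhibitors, each with a higher estimate at 0.2 ng/ml. Of all genes, 8.52% in tKO and 5.66% in WT had a higher estimate with an unadjusted p under 0.05. The call for Skil in tKO was kept under 6 of 21 other settings, with adjusted p between 0.0184 and 0.312. With the labelled series (tKO1, tKO2, WT1, WT2) as a block within genotype, 6 of the 10 rose in tKO and 2 in WT. The labels do not say what a series shares, but the Y-linked transcripts set tKO1 apart from tKO2 at every dose.

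From 0.2 to 2 ng/ml, 2 of the 10 members rose further in tKO, against 2.13% of genes higher and 7.44% lower, and 2 rose in WT, against 0.270% of genes higher and 0.164% lower. In tKO these were Ldlrad4, by 1.46 ± 0.24 (limma, adjusted p = 0.00493), and Tgfbr2, by 1.19 ± 0.30 (limma, adjusted p = 0.025). In WT they were Ldlrad4, by 1.94 ± 0.24 (limma, adjusted p = 0.00262), and Smad7, by 1.41 ± 0.28 (limma, adjusted p = 0.0469). The call for Smad7 was kept under 6 of 21 other settings, with adjusted p between 0.0322 and 0.329. Leaving out single libraries gave between 0 and 2 calls in tKO and between 0 and 3 in WT. With equal FPKM sums, which moved the median of all genes in tKO by 0.44, 5 of the 10 passed in tKO, all higher at 2 ng/ml. Among the 7 members called in WT at 2 ng/ml, the log2 change at 0.2 ng/ml was between 37.8% (Smad7) and 66.4% (Ski) of that at 2 ng/ml.

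**Figure D2:**
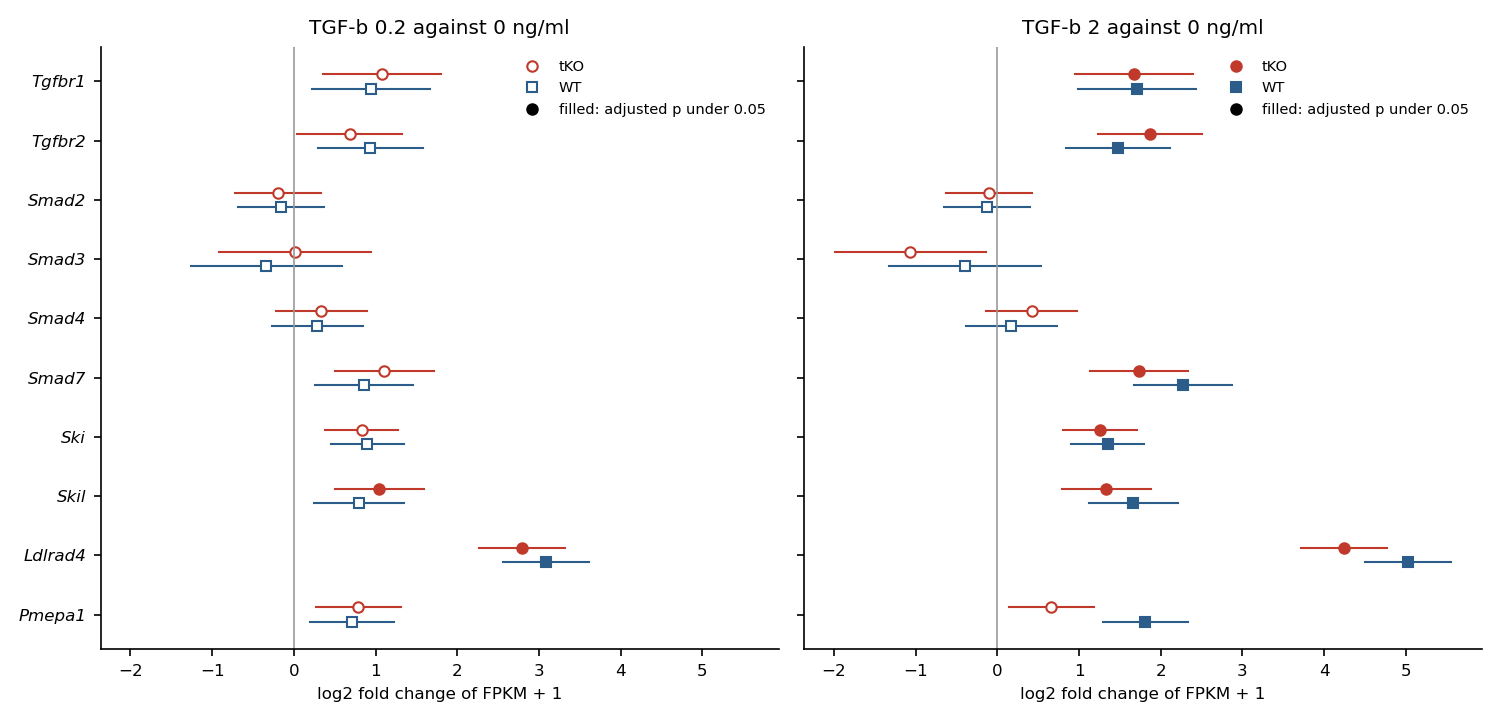
Log2 fold change of FPKM + 1 for TGF-b at 0.2 ng/ml (left) and 2 ng/ml (right) against 0 ng/ml, in tKO (red circles) and WT (blue squares). Bars are 95% intervals of the limma fit over 12 libraries, and filled symbols have an adjusted p under 0.05. Ldlrad4 lies furthest to the right in both genotypes, with 4.24 in tKO and 5.03 in WT at 2 ng/ml.

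Over the 3 doses, 2 of the 10 members were higher in tKO than in WT, Pmepa1 and Skil, and 2 were lower, Ldlrad4 and Tgfbr2, against 13.9% of genes higher and 13.3% lower, so the share of members called is near that of all genes. Libraries of a genotype with the same number in their label may share a source, so the 6 libraries of a genotype may not be independent. With each labelled series averaged over its doses, 1 of the 10 was higher in tKO and 2 were lower. The median log2 difference of the members was -0.24, beside -0.02 over all genes.

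Among the receptors, Tgfbr2 averaged 16.2 ± 10.6 FPKM in tKO and 26.2 ± 12.0 FPKM in WT (SD over doses, n = 6 libraries each), a log2 difference of -0.76 ± 0.17 (limma, adjusted p = 0.00487). Its single-dose differences were -0.80 ± 0.30 at 0 ng/ml (limma, adjusted p = 0.121), -1.06 ± 0.30 at 0.2 ng/ml (limma, adjusted p = 0.0286) and -0.41 ± 0.30 at 2 ng/ml (limma, adjusted p = 0.392). Tgfbr1 averaged 12.6 FPKM in tKO and 11.2 FPKM in WT, a difference of 0.13 ± 0.19 (limma, adjusted p = 0.66), with a 95% interval of -0.29 to 0.55. The call for Tgfbr2 at 0.2 ng/ml was lost without either of 2 libraries, WT replicate 1 (-0.73, limma, adjusted p = 0.242) and tKO replicate 2 (-1.04, limma, adjusted p = 0.109), both at 0.2 ng/ml.

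Among the signal carriers none passed the test over the doses. The log2 difference was -0.20 ± 0.14 for Smad2 (limma, adjusted p = 0.332), -0.43 ± 0.25 for Smad3 (limma, adjusted p = 0.226) and -0.22 ± 0.15 for Smad4 (limma, adjusted p = 0.317). Smad3 did pass when the tKO library at 2 ng/ml of replicate 1 was left out, where the remaining tKO library of that group is the one listed at 0 (-0.67). Without the library listed at 0 instead, the difference of Smad3 was -0.19.

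Among the inhibitors, Ldlrad4 averaged 20.8 FPKM in tKO and 51.0 FPKM in WT over the doses, a log2 difference of -0.97 ± 0.14 (limma, adjusted p = 0.00018). Its difference was -0.61 ± 0.24 at 0 ng/ml (limma, adjusted p = 0.158), -0.91 ± 0.24 at 0.2 ng/ml (limma, adjusted p = 0.0236) and -1.39 ± 0.24 at 2 ng/ml (limma, adjusted p = 0.00191). At 2 ng/ml the WT mean was 2.66 times the tKO mean. Its call at 0.2 ng/ml was lost without WT replicate 2 (-0.70, limma, adjusted p = 0.213) and without tKO replicate 2 (-0.76, limma, adjusted p = 0.141) of that dose.

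Pmepa1 averaged 54.4 ± 15.8 FPKM in tKO and 32.5 ± 21.5 FPKM in WT over the doses (SD, n = 6 libraries each), a log2 difference of 0.89 ± 0.14 (limma, adjusted p = 0.000302). It was higher in tKO by 1.25 ± 0.24 at 0 ng/ml (limma, adjusted p = 0.00431) and by 1.33 ± 0.24 at 0.2 ng/ml (limma, adjusted p = 0.00225). At 2 ng/ml the difference was 0.10 ± 0.24 (limma, adjusted p = 0.819), with a 95% interval of -0.42 to 0.62. The tKO mean was 2.48 times the WT mean at 0 ng/ml and 2.61 times at 0.2 ng/ml.

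Skil averaged 18.4 FPKM in tKO and 12.8 FPKM in WT, a log2 difference over the doses of 0.56 ± 0.15 (limma, adjusted p = 0.0116). It was called at 0.2 ng/ml, by 0.84 ± 0.25 (limma, adjusted p = 0.0411). This single-dose call was kept under 9 of 21 other settings, and the call over the doses was lost when each labelled series was averaged over its doses (limma, adjusted p = 0.0621). Smad7 differed by -0.45 ± 0.16 over the doses (limma, adjusted p = 0.0554) and by -0.89 ± 0.28 at 2 ng/ml (limma, adjusted p = 0.0456), and the call at 2 ng/ml was kept under 5 of 21 other settings. Ski differed by -0.25 ± 0.12 over the doses (limma, adjusted p = 0.142).

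By dose, 1 of the 10 members was called at 0 ng/ml (Pmepa1, higher), against 5.34% of genes higher and 4.30% lower. At 0.2 ng/ml 2 were higher and 2 lower, against 9.11% of genes higher and 6.38% lower. At 2 ng/ml 0 were higher and 2 were lower (Ldlrad4 and Smad7), against 7.82% of genes higher and 8.16% lower. Without the 3 libraries of the tKO1 series, which leaves 1 tKO library per dose assumed to vary like the other groups, Ldlrad4 (-1.13, limma, adjusted p = 0.0015), Tgfbr2 (-0.98, limma, adjusted p = 0.00444) and Pmepa1 (1.03, limma, adjusted p = 0.00301) were called over the doses as with all libraries. Skil missed the threshold there (0.49, limma, adjusted p = 0.0969). Smad3 passed it (-0.66), a value that includes the tKO library listed at 0. By dose its differences there were -0.52 at 0 ng/ml, 0.26 at 0.2 ng/ml and -1.71 at 2 ng/ml, the dose of that library. At single doses without that series, Tgfbr2 was called at 0 ng/ml (-1.27, limma, adjusted p = 0.0333) and Smad3 at 2 ng/ml, where its remaining tKO value is the one listed at 0 (-1.71, limma, adjusted p = 0.0205), while Skil at 0.2 ng/ml (0.73, limma, adjusted p = 0.149) and Smad7 at 2 ng/ml (-1.14, limma, adjusted p = 0.0551) were not.

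T cell markers moved with genotype. Over the doses 6 of 8 were lower in tKO and Cd2 was higher, against 13.3% of all genes lower and 13.9% higher. At 0 ng/ml the summed level of the 8 was between 2405 and 2478 FPKM in tKO and between 3160 and 3206 FPKM in WT. It overlapped at 0.2 ng/ml, with 3021 to 3041 FPKM in tKO and 3030 to 3377 FPKM in WT, and lay between 2551 and 2651 FPKM in tKO and between 3331 and 3585 FPKM in WT at 2 ng/ml. None of the 8 was at 0. Summed B cell markers ran from 14.4 to 82.8 FPKM over the 12 libraries, and the order of the genotypes changed with dose. At 0 ng/ml they had 39.6 to 82.8 FPKM in tKO and 14.4 to 39.2 FPKM in WT. At 0.2 ng/ml they had 15.4 to 22.6 FPKM in tKO and 34.4 to 60.5 FPKM in WT. They overlapped at 2 ng/ml, with 26.4 to 27.8 FPKM in tKO and 14.7 to 58.6 FPKM in WT. Summed NK markers overlapped at 0 ng/ml, with 1.87 to 2.27 FPKM in tKO and 1.30 to 3.08 FPKM in WT. They were between 9.11 and 9.20 FPKM in tKO and between 2.63 and 5.70 FPKM in WT at 0.2 ng/ml, and between 6.40 and 21.4 FPKM in tKO and between 3.79 and 4.70 FPKM in WT at 2 ng/ml. Summed CD8 markers overlapped at 0 ng/ml, with 7.49 to 12.6 FPKM in tKO and 7.40 to 8.09 FPKM in WT. At 0.2 ng/ml they were between 13.4 and 14.0 FPKM in tKO and between 4.19 and 6.51 FPKM in WT. At 2 ng/ml they were between 9.85 and 14.6 FPKM in tKO and between 4.02 and 8.84 FPKM in WT. Summed myeloid markers were at most 4.46 FPKM in all 12. Lyz2 and Ncr1, markers of myeloid and NK cells, were listed at 0 in all 12. Most of the NK sum was Klrc1, with 1.30 to 20.7 FPKM, while Klrb1c reached at most 2.34 FPKM and Gzma 0.391 FPKM. Most of the CD8 sum was Cd8b1, with 3.54 to 13.9 FPKM, while Cd8a reached at most 2.30 FPKM. These 2 sums therefore follow mainly 1 gene each. The part of these levels in the results on the members was not tested. In bulk RNA, fewer cells of a type and less RNA per cell cannot be told apart.

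**Figure D3:**
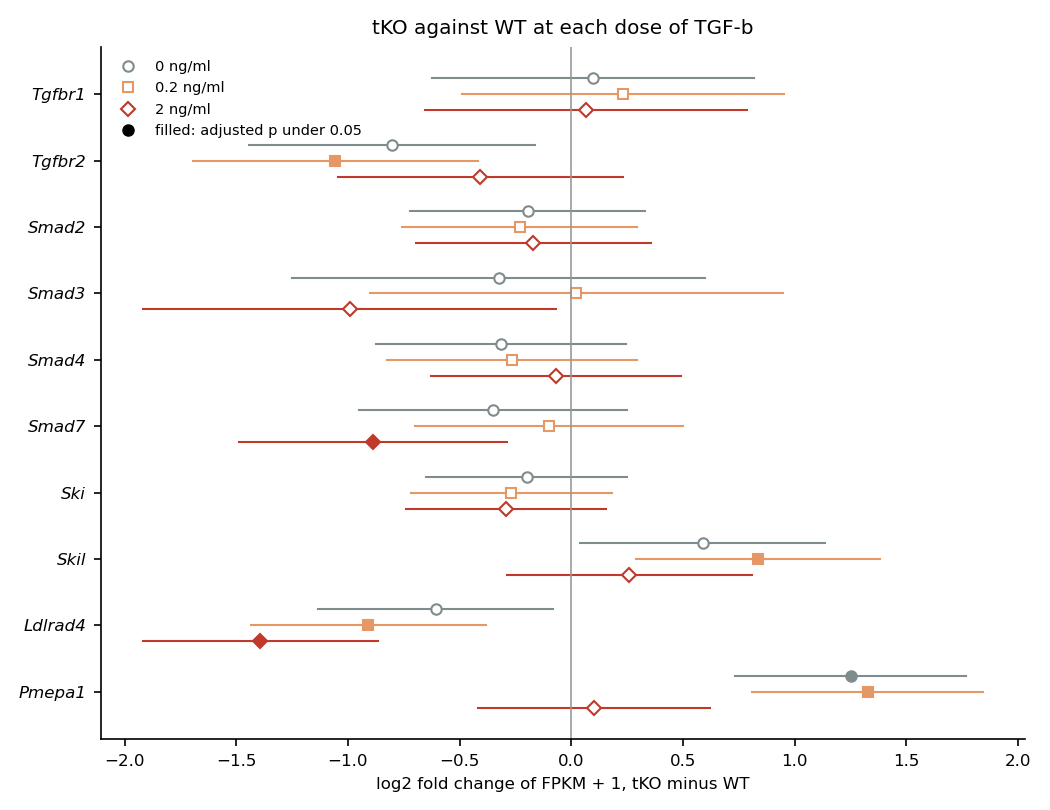
Log2 fold change of FPKM + 1, tKO minus WT, at 0 (grey circles), 0.2 (orange squares) and 2 (red diamonds) ng/ml TGF-b. Bars are 95% intervals of the limma fit, and filled symbols have an adjusted p under 0.05. Pmepa1 lies to the right at 0 and 0.2 ng/ml and at 0.10 at 2 ng/ml, while Ldlrad4 moves left, to -1.39 at 2 ng/ml.

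The difference of the TGF-b effect between genotypes was tested directly. For 2 against 0 ng/ml, 0 of the 10 members passed, against 2.97% of genes, and 2 had an unadjusted p under 0.05 by limma. Of all genes, 18.7% had an unadjusted p under 0.05. Pmepa1 had a difference in log2 change of -1.15 ± 0.34 (limma, unadjusted p = 0.0048, adjusted p = 0.0898), which passed the threshold under 3 of 21 other settings, the series as a block within genotype among them (limma, adjusted p = 0.0276). Ldlrad4 had a difference of -0.78 ± 0.35 (limma, unadjusted p = 0.0408, adjusted p = 0.243). For 0.2 against 0 ng/ml, 0 of the 10 passed, against 0.435% of genes, and 0 had an unadjusted p under 0.05, against 7.79% of genes. For the receptors the intervals of the difference at 2 ng/ml were -1.05 to 0.99 for Tgfbr1 and -0.51 to 1.30 for Tgfbr2, so differences of up to about that size are not excluded.

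DMOG at 2 ng/ml TGF-b lowered both receptors and 3 of the 5 inhibitors. Of the 10 members 5 were lower and 1 was higher with DMOG than with vehicle. Of the 9884 genes tested 33.2% were lower and 27.7% were higher, so the share of members called is near that of all genes. With a limit of 1 log2 unit besides the threshold, chosen after the values were seen, 4 of the 10 members were lower, Tgfbr2, Tgfbr1, Ldlrad4 and Smad7, where 8.16% of genes were lower by that rule. By the same rule 0 members were higher. The limit followed the values, so this contrast is a description only.

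Tgfbr2 had 29.3, 16.3 and 19.8 FPKM with DMOG, against 88.2, 93.9 and 89.0 FPKM with vehicle, a log2 change of -2.04 ± 0.16 (limma, adjusted p = 5.18e-09). Tgfbr1 had 34.6, 22.3 and 25.7 FPKM with DMOG, against 87.5, 118 and 105 FPKM with vehicle, a change of -1.88 ± 0.15 (limma, adjusted p = 8.01e-09). For both receptors the highest DMOG library lay far below the lowest vehicle library. The deposited table of this experiment had 2 entries for Tgfbr2, and both were lower, with means of 8.27 FPKM with DMOG and 42.7 FPKM with vehicle in one and 13.5 FPKM with DMOG and 47.7 FPKM with vehicle in the other.

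The signal carriers did not pass the test with all libraries. Smad2 averaged 4.71 ± 0.25 FPKM with DMOG and 4.76 ± 0.40 FPKM with vehicle (SD, n = 3 each), a log2 change of -0.01 with a 95% interval of -0.24 to 0.21. Smad4 averaged 16.2 ± 1.16 FPKM with DMOG and 16.7 ± 1.24 FPKM with vehicle, a change of -0.04 with an interval of -0.27 to 0.19. Smad3 had 3.94, 3.04 and 3.82 FPKM with DMOG, against 5.14, 4.07 and 4.42 FPKM with vehicle, a change of -0.27 ± 0.12 just outside the threshold (limma, adjusted p = 0.0528). It passed under 4 of 12 other settings, without DMOG replicate 1 (-0.32, limma, adjusted p = 0.0167), without vehicle replicate 2 (-0.33, limma, adjusted p = 0.0474), with equal FPKM sums (-0.37, limma, adjusted p = 0.0166) and with the replicate number as a block (limma, adjusted p = 0.0183). Every DMOG library was below every vehicle library for Smad3, while Smad2 and Smad4 overlapped.

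Among the inhibitors, Ldlrad4 had 21.6, 15.9 and 18.0 FPKM with DMOG, against 58.0, 57.0 and 61.2 FPKM with vehicle, a log2 change of -1.63 ± 0.12 (limma, adjusted p = 3.25e-09). Smad7 had 8.96, 5.83 and 7.43 FPKM with DMOG, against 21.3, 19.0 and 20.3 FPKM with vehicle, a change of -1.35 ± 0.13 (limma, adjusted p = 1.15e-07). Ski had 42.3, 30.6 and 39.2 FPKM with DMOG, against 72.7, 55.6 and 61.3 FPKM with vehicle, a change of -0.75 ± 0.13 (limma, adjusted p = 0.000136). The DMOG and vehicle libraries did not overlap for these 3 genes, and their calls held under all 13 other settings, leaving out each library among them.

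Skil and Pmepa1 did not fall. Skil averaged 31.0 ± 4.05 FPKM with DMOG and 31.1 ± 1.28 FPKM with vehicle, a log2 change of -0.01 with an interval of -0.26 to 0.24. Pmepa1 had 51.1, 35.5 and 42.6 FPKM with DMOG, against 35.5, 30.8 and 29.1 FPKM with vehicle, a change of 0.42 ± 0.13 (limma, adjusted p = 0.0119). The lowest DMOG library and the highest vehicle library nearly met for Pmepa1. Its call was lost without vehicle replicate 2 (0.40, limma, adjusted p = 0.0537) or replicate 3 (0.36, limma, adjusted p = 0.0578), with no filter on low values (0.42, limma, adjusted p = 0.0546), and when each library was scaled to the same FPKM sum (0.29, limma, adjusted p = 0.108).

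**Figure D4:**
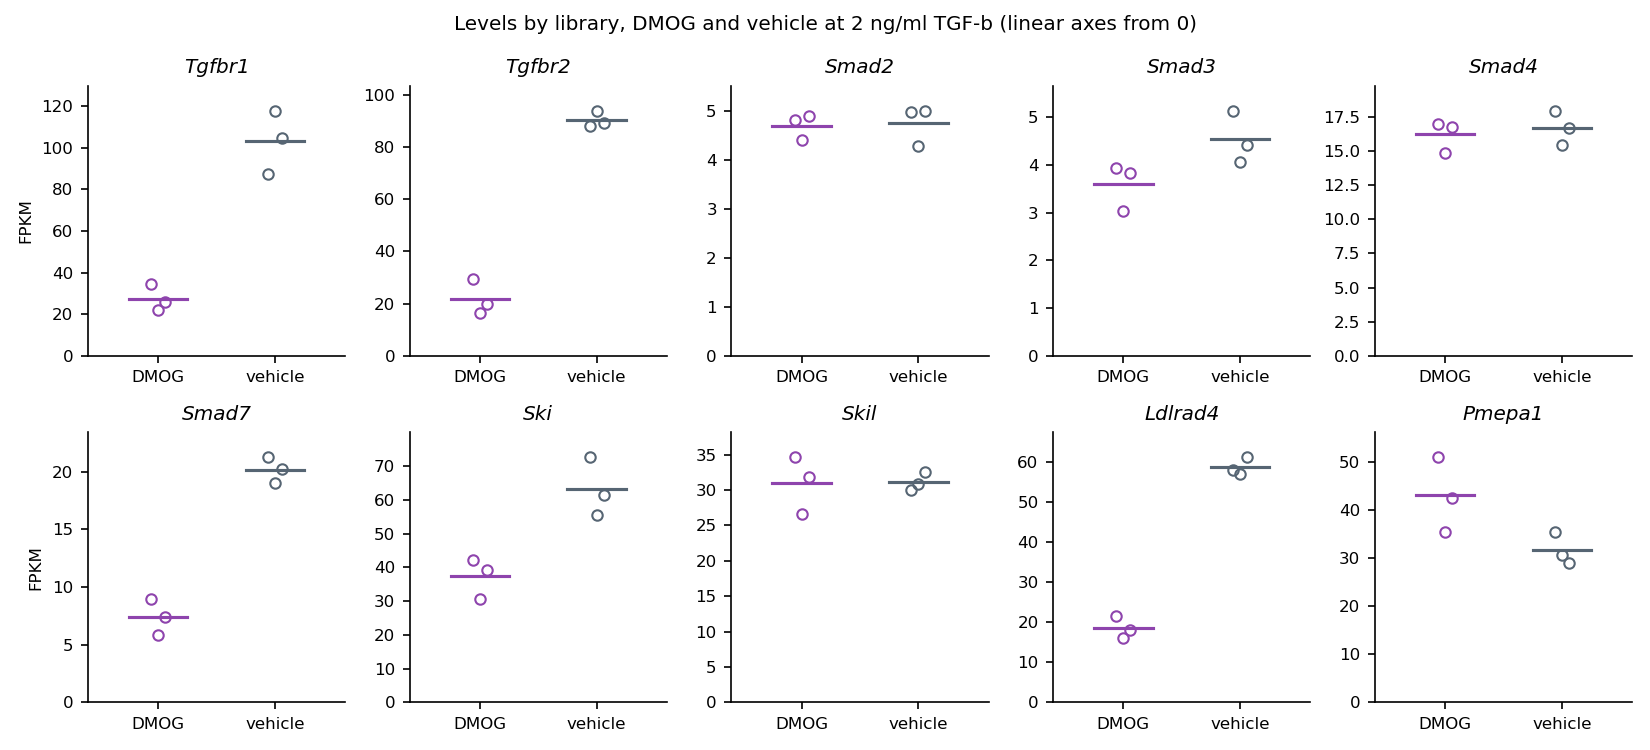
FPKM of the 10 genes in experiment 2, with DMOG (purple) to the left of vehicle (grey), all at 2 ng/ml TGF-b. Open circles are libraries, lines are means of 3 libraries, and each panel has its own linear axis from 0. The groups are far apart for Tgfbr1, Tgfbr2, Smad7 and Ldlrad4 and overlap for Smad2, Smad4 and Skil.

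Markers of T cells and of other cells also differed between the DMOG and vehicle libraries. All 8 T cell markers were lower with DMOG, against 33.2% of all genes lower and 27.7% higher. Their summed level was between 1125 and 1456 FPKM with DMOG and between 2276 and 2677 FPKM with vehicle. Summed B cell markers ran from 0.843 to 1.20 FPKM with DMOG and from 6.82 to 11.3 FPKM with vehicle, and myeloid markers from 0.119 to 0.344 FPKM with DMOG and from 6.65 to 7.13 FPKM with vehicle. Summed NK markers ran from 4.25 to 5.36 FPKM with DMOG and from 1.11 to 1.61 FPKM with vehicle. Most of this sum was again Klrc1, with 0.885 to 5.25 FPKM, while Klrb1c reached at most 0.530 FPKM. The part of these differences in the fall of the receptors was not tested.

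PHD loss and DMOG at 2 ng/ml share no library and can be set side by side. Ldlrad4 changed by -1.39 in tKO and by -1.63 with DMOG, and Smad7 by -0.89 in tKO and by -1.35 with DMOG. The receptors differed more: Tgfbr2 changed by -0.41 (95% interval -1.04 to 0.23) in tKO and by -2.04 (-2.37 to -1.71) with DMOG, and Tgfbr1 by 0.06 (-0.66 to 0.79) in tKO and by -1.88 (-2.20 to -1.57) with DMOG. These pairs of intervals do not overlap for either receptor. The tables were normalized separately, so the difference between experiments was not tested.

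**Figure D5:**
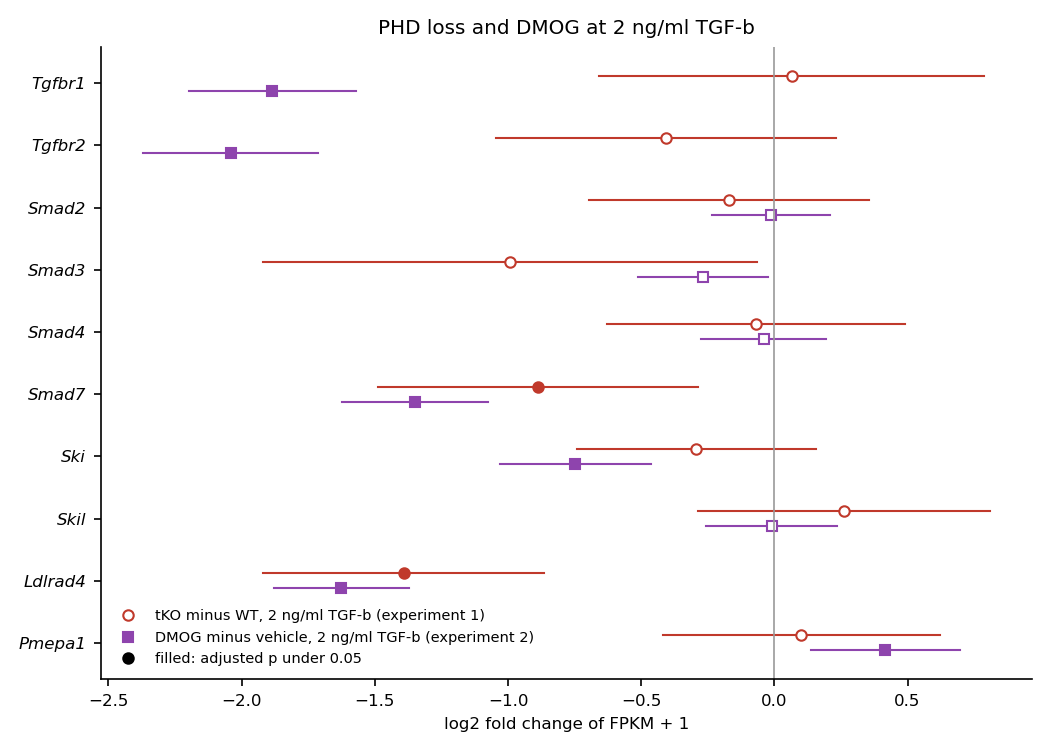
Log2 fold change of FPKM + 1 at 2 ng/ml TGF-b for tKO minus WT (red circles, experiment 1) and DMOG minus vehicle (purple squares, experiment 2), with 95% intervals of the 2 separate limma fits and filled symbols for an adjusted p under 0.05. The experiments lie close for Ldlrad4, with -1.39 and -1.63, and apart for Tgfbr1, with 0.06 and -1.88.

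The order of levels among the members changed with TGF-b. Without TGF-b, Pmepa1 was highest in tKO (37.4 ± 4.29 FPKM, SD, n = 2), above Smad4 (15.8 ± 3.30 FPKM), and Smad4 was highest in WT (20.1 ± 5.70 FPKM), above Pmepa1 (15.1 ± 1.38 FPKM). At that dose Smad7 and Ldlrad4 were the lowest in both genotypes and did not separate from each other. At 2 ng/ml, Pmepa1 (59.7 ± 1.39 FPKM) stood above Ldlrad4 (45.0 ± 3.17 FPKM) in tKO, and Ldlrad4 (119 ± 3.19 FPKM) stood above Pmepa1 (57.2 ± 19.3 FPKM) in WT, with no overlap of libraries in either. Tgfbr2 came next in both genotypes, and in tKO it did not separate from Ski. In experiment 2, Tgfbr1 (103 ± 15.3 FPKM) and Tgfbr2 (90.3 ± 3.10 FPKM) led with vehicle and did not separate, while Pmepa1 and Ski led with DMOG and did not separate. Tgfbr1 thus had 17.3 and 19.3 FPKM in WT of experiment 1 and between 87.5 and 118 FPKM with vehicle in experiment 2, at the same dose of TGF-b but in tables normalized separately.

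Genes with the most similar pattern over the 12 libraries of experiment 1 were named for the 3 members with the widest range of group means. For Ldlrad4 they were Ctsw (Pearson r = 0.988 on log2(FPKM + 1)), Fbxo32 (0.986), Timp2 (0.984), Lonp2 (0.983) and Tgif1 (0.981), of which Tgif1 encodes a SMAD corepressor. For Smad7 they were Adamts6 (0.973), Fbxo32 (0.965), Akap13 (0.963), Ldlrad4 (0.957) and Ski (0.957). For Tgfbr2 they were Rab5b (0.978), Tnfrsf1b (0.973), Inpp5k (0.962), Arhgap24 (0.960) and Pdk2 (0.957). These values describe 12 libraries that share dose and genotype groups, and 10353 genes were ranked for each.

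Among the other genes of the pathway, 8 receptors and coreceptors of the family were tested. With TGF-b at 2 against 0 ng/ml, 2 of 8 rose and 0 fell in tKO, and 2 rose and 1 fell in WT, beside the 7.59% of all genes higher and 10.4% lower in tKO and the 7.79% higher and 7.91% lower in WT. Over the doses, where 13.9% of all genes were higher and 13.3% lower, 3 of 8 were higher in tKO than in WT and 0 were lower: Tgfbr3, the coreceptor betaglycan, by 1.30 ± 0.20 (limma, adjusted p = 0.000244), the type I receptors Acvrl1 by 1.15 ± 0.21 (limma, adjusted p = 0.000985) and Bmpr1a by 2.00 ± 0.19 (limma, adjusted p = 3.84e-06). The TGF-b effect on Acvrl1 differed between genotypes, by 3.73 ± 0.51 (limma, adjusted p = 0.00201), with means of 12.6 FPKM in tKO and 0.860 FPKM in WT at 2 ng/ml, and 3.14 FPKM in tKO and 6.46 FPKM in WT at 0 ng/ml. With DMOG 3 of 8 were higher, Bmpr1a by 2.67 ± 0.12 (limma, adjusted p = 7.74e-12), and 4 were lower, beside 27.7% of all genes higher and 33.2% lower.

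Of 20 tested adaptors, SMAD ubiquitin ligases and phosphatases, 4 were higher and 1 lower in tKO over the doses, and 7 were higher and 4 lower with DMOG. For this list and those that follow, the shares of all genes given above apply: 13.9% higher and 13.3% lower over the doses, and 27.7% higher and 33.2% lower with DMOG. Nedd4, a ubiquitin ligase of the family that also holds the SMAD ligases, was higher in tKO by 2.02 ± 0.21 (limma, adjusted p = 7.83e-06) and with DMOG by 2.72 ± 0.14 (limma, adjusted p = 2.57e-11). Of 17 nuclear SMAD cofactors and repressors, 2 were higher and 2 lower in tKO over the doses, and 3 were higher and 7 lower with DMOG. Runx3, a transcription factor that binds SMADs, was higher in tKO at 2 ng/ml by 2.33 ± 0.28 (limma, adjusted p = 0.000106) and with DMOG by 3.45 ± 0.16 (limma, adjusted p = 6.70e-12). Tgif1 rose with TGF-b at 2 ng/ml by 1.36 ± 0.18 in tKO (limma, adjusted p = 0.000367) and averaged 58.6 FPKM at 2 ng/ml and 20.1 FPKM at 0 ng/ml in WT (limma, adjusted p = 0.00017).

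Of 8 tested genes of the TGF-b activated kinase branch, 1 was higher and 0 lower in tKO over the doses, and 1 was higher and 5 lower with DMOG. Of the 2 tested BMP and inhibitory SMADs, 0 were higher and 1 lower in tKO over the doses, and 0 were higher and 1 lower with DMOG.

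In tKO, 5 of 12 tested target genes of the pathway rose and 1 fell with TGF-b at 2 ng/ml. In WT 5 rose and 3 fell. Of all genes, 7.59% were higher and 10.4% lower in tKO, and 7.79% higher and 7.91% lower in WT. Over the doses, 8 of the 12 were higher and 3 lower in tKO than in WT, against 13.9% and 13.3% of all genes. Itgae, the integrin CD103, rose by 5.26 ± 0.36 in tKO (limma, adjusted p = 1.97e-06) and by 5.58 ± 0.36 in WT (limma, adjusted p = 1.22e-06). The TGF-b effect at 2 ng/ml differed between genotypes for 7 of the 12, larger in tKO for 4 and smaller for 3. Of all genes, 2.97% differed in that effect. Foxp3 had 2.88 FPKM in tKO and 51.0 FPKM in WT at 0 ng/ml. From this lower start, its TGF-b effect on the log2 scale was larger in tKO by 3.42 ± 0.40 (limma, adjusted p = 0.00123). A larger log2 effect is not by itself a higher level at 2 ng/ml. Spsb1, a substrate receptor of ubiquitin ligases reported to act on TGFBR2, had a smaller effect in tKO, by -3.85 ± 0.48 (limma, adjusted p = 0.00149). With DMOG 7 of 13 tested were higher and 5 lower, Sox4, a SMAD-induced transcription factor, by -4.94 ± 0.11 (limma, adjusted p = 7.70e-16), Itgae by -3.60 ± 0.16 (limma, adjusted p = 2.75e-12) and Foxp3 by -3.00 ± 0.15 (limma, adjusted p = 2.27e-11).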

How the data were processed

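RNA sequencing of 18 libraries was analysed from the FPKM tables that the authors deposited, 1 for each experiment, and the experiments were tested separately. Per the labels' protocols, libraries were made with a SMARTer Ultra low input kit, which does not mark strand, and each experiment was run on its own Illumina HiSeq model. The submitters' processing notes name the tools Trimmomatic, TopHat, Cufflinks and Cuffdiff, and mm9 as the build. Versions, roles and settings: not given in the sources used here. No counts were used, so no interval for counting error is given.

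Exact duplicates (17 in experiment 1 and 291 in experiment 2) were dropped and entries with the same symbol were summed. In experiment 1, 8483 of 34309 entries had no symbol and were left out. Coordinates of genes are mm9, and promoters are RefSeq's on GRCm38.p6. The 10354 and 9884 genes whose mean reached 1 FPKM were fitted on log2(FPKM + 1) with limma 3.58.1 (R 4.3.3), with a mean-variance trend, 1 coefficient per group and all libraries of an experiment sharing the spread. P-values are two-sided and adjusted by Benjamini-Hochberg over all genes of a comparison. Fold changes on this scale understate those of low genes. The procedure was tested on simulated data.

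The alternatives were a pseudocount of 0.1, no filter or a filter at 5 FPKM, quantile normalization, the replicate number as a block, the highest entry per symbol, the spread of the compared groups alone, series means, and leaving out each library. Scaling to the same FPKM sum and leaving out the tKO1 series were chosen after seeing the data. The members and the other 80 pathway genes were chosen with earlier results of these data known. All 10 members are named. Of the pathway lists, the rule takes up to 6 called genes with the smallest adjusted p in each comparison, and those described come from these. Values of such a gene in other comparisons, and Tgfbr3, were added after the values were seen. Genes of like pattern are the 5 with the highest Pearson r for the 3 members with the widest range.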

Additional observations from a re-analysis of the deposited data

How the results depend on the processing

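Of 2636 values of members under alternatives, 2414 kept their direction and their side of the threshold, 87 changed sign with no call in either setting, 84 lost a call and 51 gained one. None of the called values changed sign. Leaving out single libraries gave between 4 and 6 members called for tKO minus WT over the doses, 1 and 2 at 0 ng/ml, 1 and 4 at 0.2 ng/ml, and 1 and 2 at 2 ng/ml. For TGF-b in WT it gave between 1 and 2 at 0.2 against 0 ng/ml, 7 throughout at 2 against 0 ng/ml, and between 0 and 3 at 2 against 0.2 ng/ml. In tKO these were 1 to 4, 5 to 7 and 0 to 2. For the difference in the 2 ng/ml effect it gave 0 to 1, for that at 0.2 ng/ml 0, and for DMOG 5 to 7.

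Other settings moved these counts by more than 1.5 times, and the cause was not tested. For tKO minus WT at 0.2 ng/ml (4 called), no filter and the spread of the compared groups each gave 1. At 2 ng/ml (2 called), a pseudocount of 0.1, no filter, a filter at 5 FPKM, the spread of the compared groups and equal FPKM sums each gave 1. At 0 ng/ml (1 called), leaving out the tKO1 series gave 2. For 0.2 against 0 ng/ml in WT (1 called), a filter at 5 FPKM and equal sums each gave 2, and in tKO (2 called) no filter, the highest entry, the spread of the compared groups and equal sums each gave 1. For 2 against 0.2 ng/ml in WT (2 called), a pseudocount of 0.1, no filter, a filter at 5 FPKM and equal sums each gave 1 and the spread of the compared groups 0. In tKO (2 called) no filter gave 1, the spread of the compared groups 0 and equal sums 5. Equal sums moved the median of all genes by up to 0.44 (log2).

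Deviations of libraries with the same number correlated at 0.42, 0.13 and 0.11 between doses within tKO, at 0.19, 0.06 and 0.09 within WT, between -0.11 and 0.25 across genotypes, and at -0.14, -0.19 and 0.44 in experiment 2. The labels do not say that a number marks a shared mouse or day, so the numbers were not taken as pairs, although within tKO the correlations and the Y-linked transcripts tie libraries of a series together. With the number as a replicate block, 5 members were called over the doses, 7 with DMOG and 2 for 0.2 against 0 ng/ml in WT. With the block within each genotype, 2 were called for 0.2 against 0 ng/ml in WT, 6 in tKO, and 1 (Pmepa1) for the difference in the 2 ng/ml effect.

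With 2 libraries per group and unknown depth in experiment 1, a miss of the threshold does not show that levels did not differ.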
